A study of Mus musculus with 12 samples.

Results

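The 9 genes described here belong to the retinal pigment epithelium and the visual cycle and were measured in the RNA of mouse retinas: Rpe65, Lrat, Rdh5, Rgr, Ttr, Best1, Stra6, Pmel and Tyr. They were chosen by name, each symbol matched 1 row of the count table, and they are 9 of its 36131 genes. The retinas came from 12 wildtype C57BL/6J mice at P18, 4 in each of 3 groups, and each mouse gave 1 library of poly(A)-selected RNA. RA-PBS mice (animals 1 to 4) were kept in room air and received the placebo PBS. O2-PBS mice (animals 5 to 8) entered 75% O2 with their nursing mothers at P7, were returned to room air at P12 and received PBS, which is the oxygen-induced retinopathy model. O2-IC100 mice (animals 9 to 12) had the same O2 exposure and received IC100, a humanized antibody against the inflammasome adaptor ASC, at 10 µg/g by intraperitoneal injection on P12, P14 and P16. No group that received IC100 in room air was analysed here. The labels give the days and the intraperitoneal route for PBS and IC100 together, whereas the study describes PBS by the intravitreal route in other work, so the route of PBS in these mice is unclear. If it differed, the effects of route and of IC100 cannot be told apart in O2-IC100 against O2-PBS.

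The pigment epithelium is a single layer of pigmented cells that lies against the photoreceptors, outside the neural retina. When light strikes a photoreceptor, 11-cis-retinal is turned into all-trans-retinal, and the pigment epithelium turns it back in a set of enzyme steps called the visual cycle. LRAT esterifies all-trans-retinol, RPE65 isomerizes the ester to 11-cis-retinol, RDH5 oxidizes that to 11-cis-retinal, and RGR is an opsin of the pigment epithelium and Müller glia that binds all-trans-retinal. Transthyretin, the product of Ttr, carries the retinol-binding protein, and STRA6 is the receptor that takes up retinol from it. BEST1 is a chloride channel of the basolateral membrane. PMEL forms the fibrils of the melanosome, and tyrosinase, the product of Tyr, starts melanin synthesis. A retina is usually peeled away from this layer when it is dissected, so transcripts of these genes in a retinal library can come from pigmented cells that stayed attached.

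The stretches before the starts of the genes are shown for Rpe65, Rgr, Tyr and Best1, chosen because each held a motif. The levels of Rpe65, Rgr and Tyr moved together across the mice and that of Best1 did not follow them. They are the 250 bases before the start given by RefSeq in the GRCm38.p6 build, 5′ to 3′ on the strand of the gene, and 7 of the 9 genes had an entry. Capitals mark 2 of the 3 motifs searched on both strands: TAATCC, the core bound by OTX2 and CRX, and CATGTG, an E-box of the kind bound by MITF. The palindromic E-box CACGTG was also searched. None of these overlapped another. Lrat, Rdh5 and Stra6, whose levels also followed that of Rpe65, had an entry and held none of the 3.
Rpe65 (chr3:159598931-159599180, plus strand): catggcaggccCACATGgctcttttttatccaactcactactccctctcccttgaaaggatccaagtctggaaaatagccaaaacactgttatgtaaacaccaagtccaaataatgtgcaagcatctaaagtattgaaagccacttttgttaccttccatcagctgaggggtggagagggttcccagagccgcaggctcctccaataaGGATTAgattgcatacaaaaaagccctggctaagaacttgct
Rgr (chr14:37049015-37049264, minus strand): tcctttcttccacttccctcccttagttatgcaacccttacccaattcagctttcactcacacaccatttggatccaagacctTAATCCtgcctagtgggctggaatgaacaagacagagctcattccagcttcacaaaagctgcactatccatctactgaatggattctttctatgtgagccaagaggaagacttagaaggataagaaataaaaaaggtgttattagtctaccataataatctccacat
Tyr (chr7:87493513-87493762, minus strand): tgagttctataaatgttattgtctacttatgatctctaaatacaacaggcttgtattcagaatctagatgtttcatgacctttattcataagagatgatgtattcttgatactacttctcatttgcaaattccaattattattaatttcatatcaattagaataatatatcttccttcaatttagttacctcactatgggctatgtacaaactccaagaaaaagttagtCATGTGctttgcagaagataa
Best1 (chr19:10001634-10001883, minus strand): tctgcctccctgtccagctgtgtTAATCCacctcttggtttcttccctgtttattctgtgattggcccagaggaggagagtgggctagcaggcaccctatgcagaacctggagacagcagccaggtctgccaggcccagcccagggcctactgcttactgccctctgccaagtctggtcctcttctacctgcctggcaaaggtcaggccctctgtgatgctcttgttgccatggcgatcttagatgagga
TAATCC stood 42 bases before the start of Rpe65, 167 before that of Rgr and 227 before that of Best1. CATGTG stood 21 bases before the start of Tyr and 239 before that of Rpe65, and CACGTG stood before none of the 7. Over all 32851 promoters of this length, 6.25% held TAATCC, 12.3% CATGTG and 6.02% CACGTG. These matches describe the letters only.

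Estimated counts per library summed to between 14907143 and 24438082. Levels are given as normalized CPM, that is CPM after TMM scaling of the library sizes, which puts each gene's count on a common library size. The tissue of the label was checked on 10 rod genes, which took 4.15% to 5.16% of the counts in 11 animals and 0.345% in animal 10. The 16 lens crystallin genes took 59.0% of the counts of animal 10. They took 1.25%, 4.50% and 1.44% in the RA-PBS animals 2, 3 and 4, and at most 0.0158% in the other 8 animals. Other libraries differed from the rest: animal 4 had 0.469% of its counts in 4 optic nerve myelin genes, against at most 0.0133% elsewhere, and in animal 1 the fewest genes were detected, 17615 against 18318 to 21079. Each comparison between groups is therefore given with and without animal 10, and the correlations, the levels per kilobase and the genes most alike are given without it. The groups also differed in 4 Y-linked genes. Their sum was 223 to 273 CPM in animals 1, 2 and 3, 230 CPM in animal 8 and 283 to 324 CPM in animals 9, 11 and 12. In animals 4, 5, 6, 7 and 10 it was 4.04 to 9.85 CPM. Sex was thus uneven between the groups, and its effect was not tested.

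In animal 10 all members except Best1 stood far above every other mouse. Rpe65 (ENSMUSG00000028174) measured 9.82, 28.5, 27.4 and 25.7 CPM in RA-PBS, 7.84, 10.4, 2.43 and 10.6 CPM in O2-PBS, and 11.6, 584.4, 17.5 and 15.4 CPM in O2-IC100, in order of animal number. Animals 2, 3 and 4 were high within RA-PBS, animal 1 lay among the O2-PBS mice, and the O2-IC100 mice other than animal 10 lay just above O2-PBS. Lrat (ENSMUSG00000028003) measured 3.65, 27.3, 25.3 and 12.0 CPM in RA-PBS, 5.07, 6.67, 2.32 and 6.93 CPM in O2-PBS, and 7.67, 289.1, 8.16 and 8.78 CPM in O2-IC100. Here too RA-PBS animal 1 fell inside the O2-PBS range, and every O2-IC100 mouse lay above the highest O2-PBS mouse.

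Rdh5 (ENSMUSG00000025350) measured 11.7, 20.3, 24.3 and 22.9 CPM in RA-PBS, 8.98, 12.3, 6.62 and 14.02 CPM in O2-PBS, and 11.5, 508.8, 11.9 and 9.17 CPM in O2-IC100. It was the visual cycle member for which the O2-IC100 mice other than animal 10 sat inside the O2-PBS range. Rgr (ENSMUSG00000021804) measured 28.3, 80.2, 82.2 and 72.1 CPM in RA-PBS, 18.7, 32.8, 10.7 and 31.4 CPM in O2-PBS, and 37.5, 1530, 33.9 and 36.7 CPM in O2-IC100. Its 3 O2-IC100 values outside animal 10 were close to each other and above all 4 O2-PBS values.

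Of the retinol transport genes, Ttr (ENSMUSG00000061808) measured 51.3, 82.9, 127.9 and 114.8 CPM in RA-PBS, 34.5, 56.5, 22.2 and 65.2 CPM in O2-PBS, and 52.8, 3207, 67.6 and 70.2 CPM in O2-IC100. Stra6 (ENSMUSG00000032327) measured 10.04, 17.1, 15.99 and 14.7 CPM in RA-PBS, 6.33, 9.18, 5.09 and 10.03 CPM in O2-PBS, and 7.13, 562.7, 10.9 and 10.5 CPM in O2-IC100. Stra6 was the 1 member whose RA-PBS and O2-PBS values did not overlap, and the gap between animal 1 and animal 8 was 10.04 against 10.03 CPM. The share of all genes without overlap is not given here.

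Of the melanosome genes, Pmel (ENSMUSG00000025359) measured 7.07, 8.84, 23.4 and 22.4 CPM in RA-PBS, 6.69, 8.24, 5.99 and 3.94 CPM in O2-PBS, and 21.5, 1498, 10.2 and 13.7 CPM in O2-IC100. Every O2-IC100 mouse was above the highest O2-PBS mouse, and in RA-PBS only animals 3 and 4 were high. Tyr (ENSMUSG00000004651) measured 1.46, 4.88, 6.77 and 5.79 CPM in RA-PBS, 1.63, 2.92, 1.30 and 2.33 CPM in O2-PBS, and 3.73, 233.8, 3.02 and 2.65 CPM in O2-IC100. The channel gene Best1 (ENSMUSG00000037418) was near the limit of these libraries at 2 to 11 counts: 0.112, 0.290, 0.611 and 0.421 CPM in RA-PBS, 0.603, 0.521, 0.565 and 0.499 CPM in O2-PBS, and 0.479, 0.253, 0.432 and 0.245 CPM in O2-IC100. It was not raised in animal 10, and all 4 O2-IC100 values lay below all 4 O2-PBS values, with no share of all genes to set beside this.

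**Figure D1:**
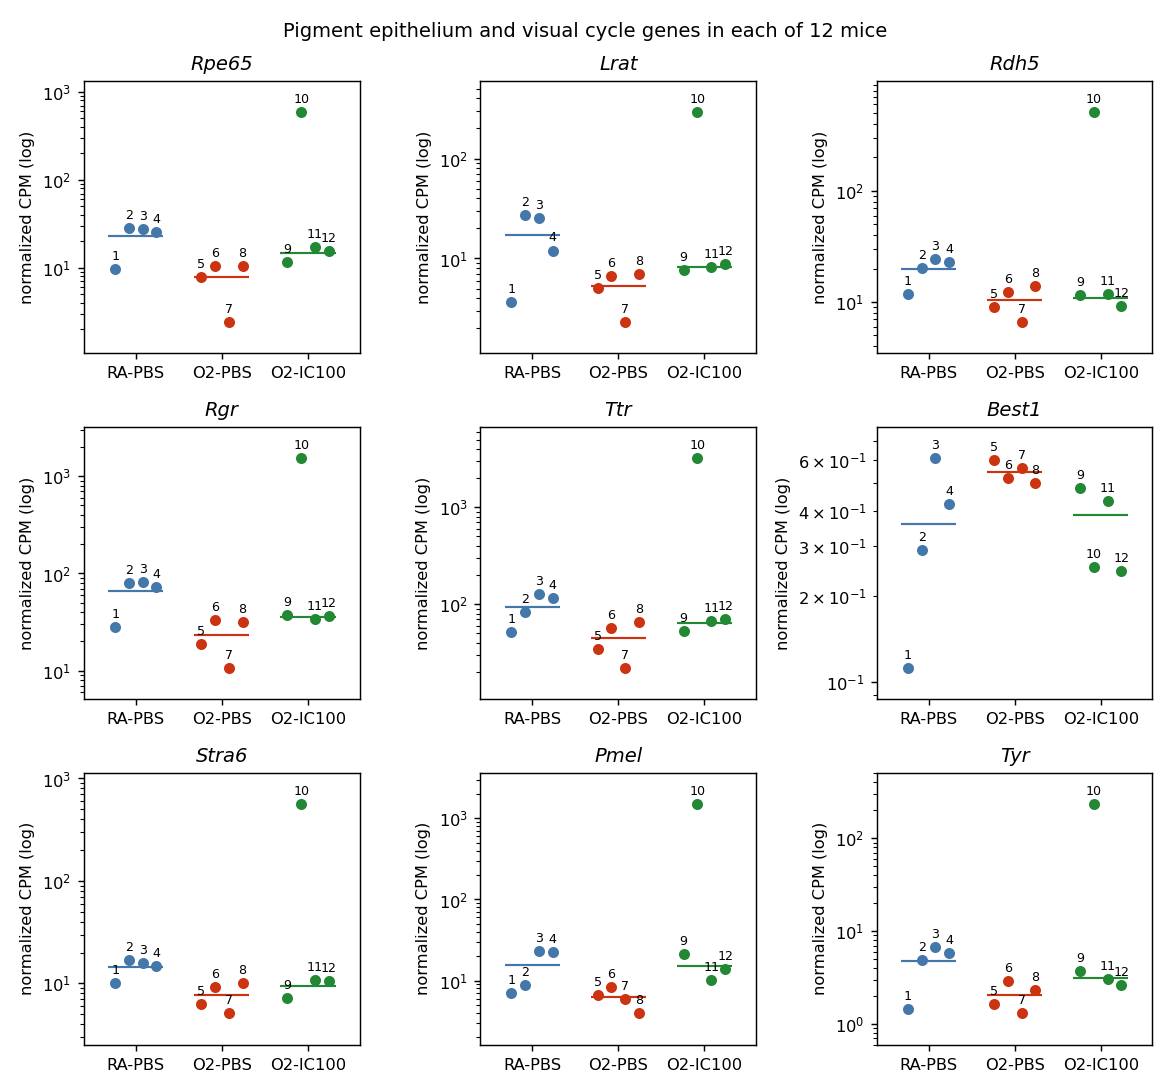
Normalized CPM (log axis, 1 range per panel) of each of the 9 genes in each of the 12 mice, with animal numbers beside the points and lines at the group means, animal 10 left out of its mean. For 8 genes animal 10 lies above every other mouse, and animals 2, 3 and 4 lie above all 4 O2-PBS mice, whereas Best1 follows neither.

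The first comparison, O2-PBS against RA-PBS, addresses what the O2 exposure did to these transcripts. Without animal 10, 7 of the 9 members were lower in O2-PBS and passed a fold change of 1.5, a p-value of 0.05 and an adjusted p-value of 0.1 in edgeR's quasi-likelihood test, and 2.18% of the 16688 genes tested were lower and passed. Rpe65 fell by 1.54 on the log2 scale (SE 0.421, adjusted p = 0.0477), from 22.9 ± 8.77 CPM (SD, n = 4) to 7.82 ± 3.81 CPM (SD, n = 4). Lrat changed the most and Stra6 the least of the 7, with log2 fold changes of -1.70 (adjusted p = 0.0844) and -0.91 (adjusted p = 0.0245). Between them stood Rgr at -1.48 (adjusted p = 0.044), Pmel at -1.31 (adjusted p = 0.0751), Tyr at -1.20 (adjusted p = 0.0733) and Rdh5 at -0.92 (adjusted p = 0.032). Ttr stood at -1.08 with an adjusted p of 0.102, and Best1 at 0.60 with an adjusted p of 0.517. Leaving out 1 more mouse moved the 7 to 2 without animal 5, to 4 without animal 2, 3 or 7, and to 8 without animal 1, where 1.64% to 2.96% of all genes were lower and passed. DESeq2 called 8 of the members and 2.44% of all genes as lower, limma voom 5 and 1.55%, and the fit with no filter on low counts 3 and 1.23%. In these whole retinas, fewer cells of a type and less RNA per cell cannot be told apart.

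With all 12 animals in the fit the fold changes of these genes were nearly the same, from -0.92 to -1.70, but none passed. Their standard errors were 1.12 to 1.34, their adjusted p-values were 1, none had an unadjusted p under 0.05, and limma voom called none. Best1 did not pass the filter on low counts. DESeq2, the tool named by the authors, gave no p-value for the 8 tested members with 12 animals, because its outlier rule withheld them. Of the 16489 genes tested, 1174 had an unadjusted p under 0.05, and 0.0243% were lower in O2-PBS and passed. Animal 10 belongs to neither of these groups and enters through the estimate of the spread that the 3 groups share.

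Within RA-PBS, the levels were higher in the mice whose libraries held more lens transcripts. RA-PBS animals 2, 3 and 4, with a crystallin share of at least 1%, exceeded the highest O2-PBS mouse for 8 of the 9 members. RA-PBS animal 1, whose crystallin share was 0.00315%, lay within the O2-PBS range for 7 of the 9. It was the only RA-PBS library with a share under 1%, and the fewest genes were detected in it. The exceptions for animal 1 were Stra6, just above that range, and Best1, below it. The shares of all genes with these positions are not given here. Summed over the members, the level was 123.4 CPM in animal 1, 270.3, 333.8 and 290.9 CPM in animals 2, 3 and 4, and 57.2 to 145.0 CPM in O2-PBS. In O2-PBS animals 5, 6, 7 and 8 the sums were 90.3, 139.6, 57.2 and 145.0 CPM. Their crystallin shares were 0.00303%, 0.0158%, 0.00387% and 0.00359%, in a different order from the sums.

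When animals 2, 3, 4 and 10 were left out, none of the members was lower in O2-PBS and past the thresholds. Rpe65 then stood at -0.33 (SE 0.707, adjusted p = 0.744), Rgr at -0.28 (adjusted p = 0.745), Stra6 at -0.40 (adjusted p = 0.392), Lrat at 0.52 (adjusted p = 0.438) and Tyr at 0.48 (adjusted p = 0.402). Best1 alone passed, and it was higher in O2-PBS, at 2.21 (SE 0.958, adjusted p = 0.0812), in a fit where 16.6% of all genes passed as higher and 7.71% as lower. In this fit animal 1, with 2 counts of Best1, is the only RA-PBS mouse and is assumed to vary like the other groups. With the crystallin level as a covariate and animal 10 left out, again only Best1 passed, at 1.89 (adjusted p = 0.0772), where 13.3% of all genes passed as higher and 6.23% as lower, and Rpe65 stood at -0.46 (adjusted p = 0.478). The lens genes were not themselves independent of the groups, since 22 of 22 tested were lower in O2-PBS without animal 10, with a median log2 fold change of -8.77. The part that attached lens or pigmented tissue had in the lower levels was not tested.

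**Figure D2:**
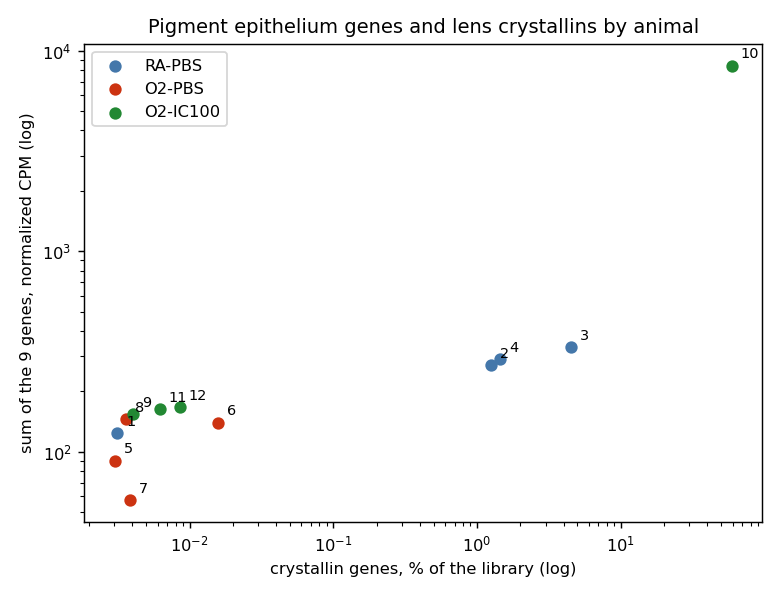
Summed normalized CPM of the 9 genes (log axis) against the share of the library in 16 crystallin genes (percent, log axis), 1 numbered point per mouse, coloured by group. Animals 2, 3, 4 and 10 lie to the right with crystallin shares of 1.25% to 59.0% and hold the 4 highest sums, and RA-PBS animal 1 lies among the O2 mice.

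The second comparison, O2-IC100 against O2-PBS, addresses what IC100 did after O2 exposure. With 12 animals, the 8 members tested were 3.68 to 5.95 higher on the log2 scale, none passed with an adjusted p of 0.287 for each, and 0% of all genes passed as higher. Each of the 8 had an unadjusted p under 0.05, from 0.0033 to 0.0114, as did 2784 of the 16489 genes tested. Limma voom called none of the 8. Animal 10 alone carried these values: it exceeded the highest of the other 11 mice 20.5-fold for Rpe65, 10.6-fold for Lrat, 18.6-fold for Rgr, 33.0-fold for Stra6 and 64.1-fold for Pmel. On CPM of the whole library, without TMM scaling, the same ratios were 6.14, 3.17, 5.64, 9.89 and 19.4, since the TMM factor of animal 10 was 0.324 and those of the others were 1.07 to 1.15.

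Without animal 10, 8 of the 9 members had positive log2 fold changes in O2-IC100 and none passed, where 0.216% of all genes passed as higher. Positive changes were found for 8420 of the 16688 genes tested. The levels of most members followed that of Rpe65 across mice, so the 8 are not independent of each other. Pmel stood at 1.29 (SE 0.432, adjusted p = 0.183), from 6.22 ± 1.79 CPM (SD, n = 4) in O2-PBS to 15.1 ± 5.75 CPM (SD, n = 3) in O2-IC100. In edgeR an unadjusted p under 0.05 was found for Pmel alone of the members, and for 3201 of the 16688 genes tested. Rpe65 stood at 0.93 (SE 0.448, adjusted p = 0.278), Lrat at 0.66 (adjusted p = 0.535), Rgr at 0.63 (adjusted p = 0.403), Rdh5 at 0.06 (adjusted p = 0.914) and Best1 at -0.49 (adjusted p = 0.62). DESeq2 and limma voom called none either. For Rpe65, Lrat, Rgr and Pmel all 3 O2-IC100 mice were above all 4 O2-PBS mice. The share of all genes separated in this way is not given here, so this is a description only. Pmel alone passed when only these groups were fitted, when the crystallin level was a covariate, and when animals 2, 3, 4 and 10 were left out (adjusted p = 0.0265). In those fits 1.01%, 0.497% and 1.1% of all genes passed as higher. The crystallin share of these 3 O2-IC100 mice was 0.00407% to 0.00855%, and that of the O2-PBS mice 0.00303% to 0.0158%.

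The last comparison, O2-IC100 against RA-PBS, changed sign with animal 10. With 12 animals the 8 members were 2.19 to 4.64 higher on the log2 scale. An unadjusted p under 0.05 was found for 7 of them and for 2183 of the 16489 genes tested. The adjusted p-values of the 8 were 0.374 to 0.389, limma voom called none, and 0% of all genes passed as higher. Without animal 10, 8 of 9 had negative log2 fold changes and none passed, where 0.617% of all genes passed as lower. Negative changes were found for 7924 of the 16688 genes tested. Rdh5 stood at -0.86 (SE 0.262, adjusted p = 0.138) and was past the thresholds in DESeq2 (adjusted p = 0.032), which called 1.74% of all genes as lower. Rdh5 and Stra6 (-0.59) were the 2 members with an unadjusted p under 0.05 in edgeR, as were 2595 of the 16688 genes tested. Rpe65 stood at -0.61 and Pmel at -0.01. The comparisons share groups: the O2-PBS mice serve in the first and second, and the RA-PBS mice in the first and last.

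**Figure D3:**
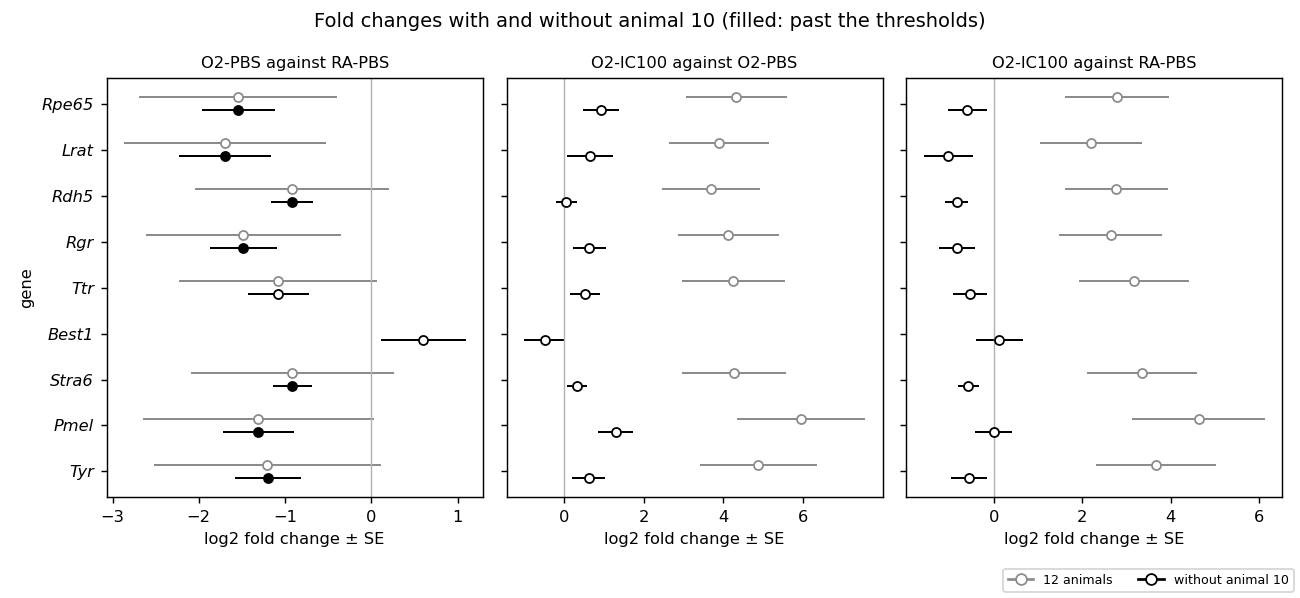
Log2 fold change (horizontal axis, bars are 1 SE) of each gene in the 3 comparisons, in grey with 12 animals and in black without animal 10, filled where past the thresholds. The 7 filled points all lie in O2-PBS against RA-PBS without animal 10, and in both O2-IC100 comparisons the grey points lie far to the right of the black ones.

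The members kept their proportions across mice to unequal degrees. Rpe65 itself spanned 11.7-fold over the 11 mice without animal 10, and the ratio of Rgr to Rpe65 spanned 2.27-fold (1.94 to 4.42, median 2.88) with 2.62 in animal 10. The ratio of Lrat to Rpe65 ran from 0.371 to 0.958 with 0.495 in animal 10, and that of Ttr from 2.90 to 9.12 with 5.49 in animal 10. These 3 ratios in animal 10 thus fell inside the range of the other mice although the levels did not. Pmel was the exception among the melanosome genes, with a ratio of 0.310 to 2.47 and 2.56 in animal 10, and Tyr stood at 0.151 to 0.526 and 0.400. Best1 fell outside by far, with 0.0102 to 0.233 and 0.000432 in animal 10. Animal 7, an O2-PBS mouse, had the highest ratio of the 11 mice for 7 of the 8 genes and the lowest Rpe65 level.

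**Figure D4:**
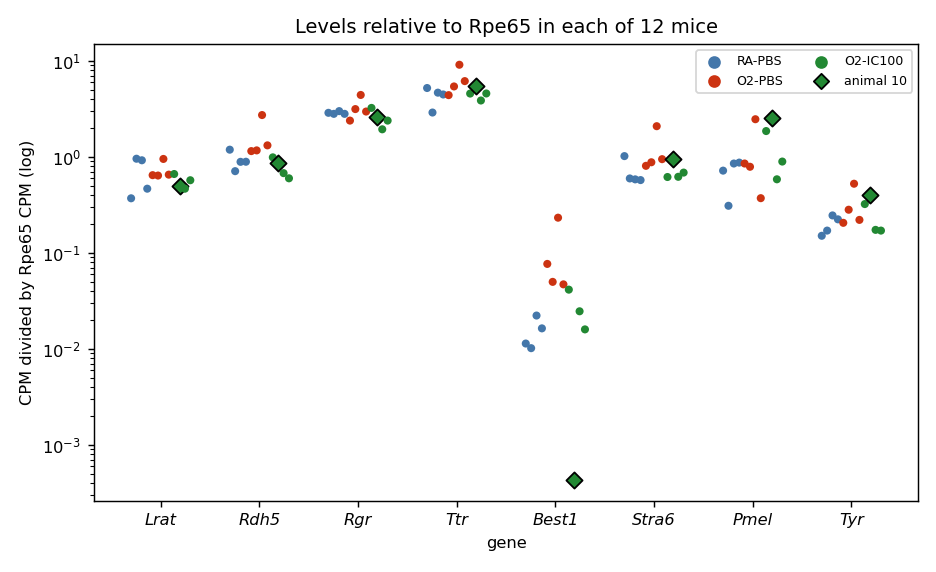
Normalized CPM divided by that of Rpe65 in the same mouse (log axis) for the other 8 genes, 1 point per mouse coloured by group, with animal 10 as a diamond. The diamond lies within the other points for Lrat, Rdh5, Rgr, Ttr, Stra6 and Tyr, just above them for Pmel and far below them for Best1.

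Across the 11 mice without animal 10, log2 CPM of Rpe65 was correlated with that of each of the other 8 members. Pearson's r was 0.960 for Rgr, 0.946 for Ttr, 0.925 for Stra6, 0.907 for Lrat, 0.861 for Tyr, 0.859 for Rdh5, 0.588 for Pmel and -0.181 for Best1. The permutation p-values (2-sided) adjusted over the 8 pairs were 8e-05 for Rgr, Ttr, Stra6 and Lrat, 0.00029 for Tyr, 0.0013 for Rdh5, 0.055 for Pmel and 0.61 for Best1, and the unadjusted 2e-05 of Ttr and Stra6 is the smallest that 100000 resamples can give. Spearman's rho was 0.945 for Rgr (adjusted permutation p = 0.00032), 0.936 for Ttr (0.00032), 0.918 for Stra6 (0.00052), 0.982 for Lrat (0.00016), 0.9 for Tyr (0.00086), 0.764 for Rdh5 (0.012), 0.736 for Pmel (0.015) and -0.255 for Best1 (0.45). Without animals 7 and 2, the farthest from the median of Rpe65, r was 0.790 to 0.951 for the first 6, 0.742 for Pmel and 0.143 for Best1.

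Since animals 2, 3 and 4 stood apart, the relation was also taken in the 8 mice with a crystallin share under 1%. There r was 0.945 for Ttr (exact permutation p = 0.0014, adjusted p = 0.012), 0.940 for Rgr (adjusted 0.014), 0.9 for Lrat (adjusted 0.015), 0.852 for Stra6 (adjusted 0.016) and 0.729 for Tyr (adjusted 0.027). For Rdh5 it was 0.734 (adjusted exact permutation p = 0.14), for Pmel 0.438 (0.27) and for Best1 -0.321 (0.37). Spearman's rho in the same mice was 0.905 for Ttr, 0.881 for Rgr, 0.952 for Lrat, 0.786 for Stra6 and 0.810 for Tyr, each with an adjusted exact permutation p of at most 0.045, and 0.452 for Rdh5, 0.667 for Pmel and -0.595 for Best1. The levels of Ttr, Rgr, Lrat, Stra6 and Tyr thus followed that of Rpe65 also among mice whose libraries held few lens transcripts. As deviations from the group means, r over the 11 mice was 0.767 to 0.932 for these 5 and Rdh5, 0.207 for Pmel and 0.377 for Best1.

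Compared per kilobase of merged exon, Ttr was the most abundant member in RA-PBS at 79.4 ± 28.9 CPM per kb (SD, n = 4), followed by Rgr at 13.7 ± 5.29 and Rpe65 at 11.8 ± 4.53, Rdh5 at 7.05 ± 2.01 and Pmel at 6.73 ± 3.78, Lrat at 3.19 ± 2.09 and Stra6 at 2.48 ± 0.53, Tyr at 0.665 ± 0.325 and Best1 at 0.139 ± 0.0814. Rgr and Rpe65, Rdh5 and Pmel, and Lrat and Stra6 did not differ beyond their SD. Without animal 10 the O2-IC100 group had 53.6 ± 7.92 CPM per kb of Ttr and 7.65 ± 1.55 of Rpe65 (SD, n = 3), and O2-PBS had 37.6 ± 16.7 and 4.04 ± 1.97 (SD, n = 4).

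Other genes of the pathway were taken from fixed lists. The 14 other visual cycle and retinoid genes summed to 5205 to 7191 CPM in RA-PBS, against 123.4 to 333.8 CPM for the members. Which cells their transcripts came from was not tested. Without animal 10, 2.18% of all genes passed as lower in O2-PBS than in RA-PBS and 4.09% as higher. In this comparison the median log2 fold change of the 14 genes was 0.06, against -0.01 over all genes and -1.20 over the members. Of the 14, 1 passed as lower and none as higher. That gene was Rlbp1, which encodes the retinal-binding protein CRALBP of pigment epithelium and Müller glia, at -0.61 (SE 0.132, adjusted p = 0.0131). It measured 540.0, 386.9, 335.9 and 439.2 CPM in RA-PBS and 254.5 to 322.6 CPM in O2-PBS. The groups thus did not overlap, but the share of all genes without overlap is not given here. Animal 1 was the highest of all but animal 10. Of 10 other melanin and melanosome genes, Oca2, a melanosome membrane protein (-1.28, adjusted p = 0.0499), and Dct, which acts in melanin synthesis (-0.89, adjusted p = 0.0791), were lower and none was higher, with a median of -0.85. Oca2 measured 1.01, 2.56, 4.44 and 3.90 CPM in RA-PBS and 0.848 to 1.45 CPM in O2-PBS, with animal 1 inside the O2-PBS range as for the members.

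Of 15 other pigment epithelium genes, 3 were lower in O2-PBS without animal 10 and none was higher, with a median of -0.24. In this fit 2.18% of all genes passed as lower. Slc16a8, a lactate transporter, stood at -1.14 (adjusted p = 0.0949). Ermn, which oligodendrocytes also express, stood at -2.38 (adjusted p = 0.0666), and 26.4 CPM in animal 4 against 1.91 to 5.41 CPM in the other RA-PBS mice moved with the myelin genes of animal 4. Enpp2, which encodes the lipid enzyme autotaxin, stood at -1.37 (SE 0.16, adjusted p = 0.000243). Enpp2 measured 83.0, 113.4, 112.2 and 143.4 CPM in RA-PBS, 37.9, 43.3, 36.7 and 56.4 CPM in O2-PBS and, without animal 10, 67.7, 74.6 and 66.1 CPM in O2-IC100. Its 3 groups did not overlap, animal 1 included, but the share of all genes without overlap is not given here. Enpp2 also passed as higher in O2-IC100 than in O2-PBS (0.69, adjusted p = 0.0991), where 0.216% of all genes did. It passed as lower in O2-IC100 than in RA-PBS (-0.69, adjusted p = 0.0806), where 0.617% did. With animal 9, 11 or 12 also left out, 0% of all genes passed as higher in O2-IC100 than in O2-PBS, so Enpp2 did not. Of the 5 tested transcription factors of the pigment epithelium, Sox9 passed as higher in O2-PBS (0.77, adjusted p = 0.0121), as did 4.09% of all genes. Mitf stood at -0.28 and Otx2 at -0.03, both short of the thresholds.

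In O2-IC100 against O2-PBS without animal 10, Enpp2 was the only gene of these 4 lists past the thresholds. It did not pass when animal 9, 11 or 12 was also left out. Positive fold changes were found for 8 of 14 visual cycle genes, 9 of 10 melanin genes, 12 of 15 other pigment epithelium genes and 4 of 5 transcription factors, with medians of 0.10, 0.57, 0.38 and 0.17, against 0.62 over the members and 0.004 over all genes. In O2-IC100 against RA-PBS the lists' medians were 0.00 for the visual cycle, -0.10 for melanin and -0.25 for the other pigment epithelium genes, against -0.59 over the members. With 12 animals no gene of these lists passed in any of the 3 comparisons.

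**Figure D5:**
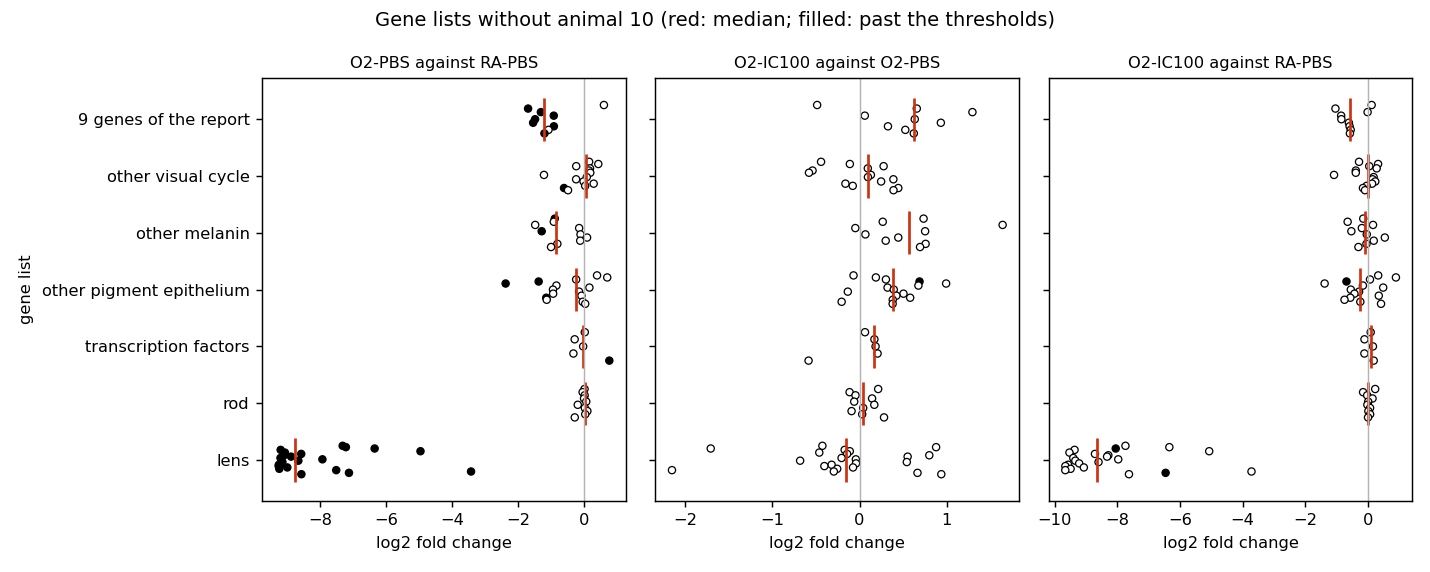
Log2 fold change (horizontal axis, 1 range per panel) of every tested gene of 7 lists in the 3 comparisons without animal 10, with a red line at the list's median and filled points past the thresholds. In O2-PBS against RA-PBS the lens genes lie between -9.25 and -3.42 and the members' median is -1.20, whereas the medians of the other visual cycle genes and of the rod genes are near 0.

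The genes most like the members were ranked by Pearson's r to the mean standardized log2 CPM of the 9 members over the 11 mice. They were Pon1 (0.961), Ptgds (0.957), Slc16a8 (0.955), Oca2 (0.945), Cltrn (0.945), Cryaa (0.921), Col8a2 (0.920), Clic6 (0.915), Cryba4 (0.912) and Slc6a20a (0.907). Slc16a8 and Oca2 belong to the pigment epithelium and melanin lists, and Cryaa and Cryba4 are lens crystallins. Over 16679 genes the median r was 0.02, and 0.0959% reached 0.9. The members themselves had r of 0.697 to 0.977 to this mean except Best1, at 0.0806. Each member is part of the mean, which raises its r, so these values cannot be set beside those of other genes.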

How the data were processed

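The authors pseudoaligned 150 bp paired-end reads to the GRCm39_104 transcriptome with Kallisto and used tximport to add up transcripts by gene. The deposited values are the authors' estimated counts of each gene, with no scaling to library size, and 42.2% of them are not whole. Symbols were paired with Ensembl identifiers for 35374 of 36131 genes. The authors tested with DESeq2.

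Counts were rounded and fitted in R 4.3.3 with edgeR 4.0.16 (TMM, filterByExpr, robust quasi-likelihood F test, two-sided, Benjamini-Hochberg over all genes tested), all 3 groups in 1 fit without covariates, with 16489 genes, and again without animal 10 with 16688. The thresholds were those of the study: fold change 1.5, p 0.05, adjusted p 0.1. Log2 CPM had a prior count of 2. Fold changes are from the model. On simulated data with 200 of 16489 genes changed, edgeR recovered 100% and 3.85% of its calls were false. The simulation had the same fixed spread for all genes, left animal 10 out of the gene means and changed only genes with high counts. It therefore does not show how often changes of these members would be found. Correlations used scipy 1.17.1 with 100000 permutations, or exact enumeration for 8 mice.

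The smallest level the depth can show is set by the counts, and CPM intervals were not computed. Exon lengths came from GENCODE vM21 and promoters from RefSeq, both GRCm38, a build other than that of the counts, so gene positions are given for promoters only. The members and lists were chosen with earlier results of these data known. Genes outside the members are named when past the thresholds in a fixed list, at most 6 a list by p, or when among the 10 most alike; Mitf and Otx2 were named after their values were seen. Alternatives were other normalizations, no filter, DESeq2 1.42.0, limma voom 3.58.1, only the groups compared, a crystallin covariate, and animals left out. Added after the data were seen were the fit without animal 10 taken as a result of its own, leaving out every animal with a crystallin share of at least 1%, and correlations over the 8 other animals. The labels give 1 animal per library, so p-values measure spread between animals.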

Additional observations from a re-analysis of the deposited data

Results flagged for a closer look

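Animal 10 of O2-IC100 stood apart from its group for 8 members, for their sum and for the crystallins. Its values were 584.4 CPM for Rpe65, 289.1 for Lrat, 508.8 for Rdh5, 1530 for Rgr, 3207 for Ttr, 562.7 for Stra6, 1498 for Pmel and 233.8 for Tyr, with 8414 CPM for the 9 genes together and 59.0% of its counts in crystallin genes. A pair of other values stood apart from the 3 other mice of their group: Rpe65 at 9.82 CPM in RA-PBS animal 1, and a crystallin share of 0.0158% in O2-PBS animal 6. Each was found by the gap of the highest or lowest mouse to the next, relative to the range of the group. In all 33 sets of 4 mice were examined and 12 stood apart, 10 of them for animal 10. Chance gives about 1 in 20 for a single set of normal values. The sets share the same libraries and are not independent, so that rate is no measure for the 12.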

How the results depend on the processing

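No paired analysis was possible because each animal has its own number and no number is shared between groups. Counts below are of members past the thresholds, with the share of all genes past them in the same direction. With 12 animals, the 0 members of O2-PBS against RA-PBS became 5 lower when only those groups were fitted (1.84%), 1 higher (Tyr) with the crystallin covariate (8.35%) and 8 lower without animals 1 and 10 (2%). Leaving out each animal gave 0 to 7, with 7 without animal 10. In O2-IC100 against RA-PBS, 0 became 8 higher with the covariate (11.7%) and 2 lower without animals 1 and 10 (0.895%), and leaving out each animal gave 0 throughout. With the covariate the O2-PBS against RA-PBS changes turned positive, at 0.46 for Rpe65, 0.81 for Lrat, 0.89 for Rdh5, 0.47 for Rgr, 0.74 for Ttr, 0.85 for Stra6, 1.01 for Pmel and 1.63 for Tyr. Without animals 1 and 10 the O2-IC100 against RA-PBS changes turned negative, at -0.86 for Rpe65, -1.37 for Lrat, -1.04 for Rdh5, -1.1 for Rgr, -0.75 for Ttr, -0.72 for Stra6, -0.25 for Pmel and -0.87 for Tyr. With each animal left out in turn, the lowest without animal 10, they ran from -0.61 to 3.16 for Rpe65, -1.04 to 2.57 for Lrat, -0.86 to 3.16 for Rdh5, -0.85 to 3.02 for Rgr, -0.55 to 3.56 for Ttr, -0.59 to 3.74 for Stra6, -0.014 to 5.05 for Pmel and -0.58 to 4.07 for Tyr.

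Without animal 10, the 7 members of O2-PBS against RA-PBS became 3 with no filter on low counts (1.23%), 1 (Best1, higher) with the covariate (13.3%) and 1 (Best1, higher) without animals 2, 3, 4 and 10 (16.6%), and stood at 8 with DESeq2 (2.44%) and 5 with limma voom (1.55%). Leaving out each animal gave 2 (without animal 5) to 8 (without animal 1), with 4 each without animals 2, 3 and 7. In O2-IC100 against O2-PBS, 0 became 1 (Pmel, higher) with only those groups (1.01%), with the covariate (0.497%) and without animals 2, 3, 4 and 10 (1.1%), and 0 to 1 with each animal left out, 1 without animal 4 (0.729%). In O2-IC100 against RA-PBS, 0 became 1 (Rdh5, lower) with DESeq2 (1.74%) and 1 (Tyr, higher) without animals 2, 3, 4 and 10 (11.9%), and 0 to 2 lower with each animal left out, 2 without animal 1 (0.895%) and 1 without animal 4 (2.66%). Changes that turned were, for O2-PBS against RA-PBS with the covariate, 0.24 for Lrat and 0.31 for Tyr, and without animals 2, 3, 4 and 10, 0.52 and 0.48. For O2-IC100 against RA-PBS they were, with the covariate, 0.45 for Rpe65, 0.85 for Lrat, 0.23 for Rgr, 0.27 for Ttr, 1.02 for Pmel and 0.92 for Tyr, and without animals 2, 3, 4 and 10, 0.59, 1.17, 0.35, 0.31, 1.1 and 1.1. Pmel also turned with upper quartile normalization, at 0.0046, and limma voom, at 0.11. With each animal left out, O2-IC100 against RA-PBS ran from -0.35 to 0.25 for Pmel and from -0.16 to 0.36 for Best1, and O2-IC100 against O2-PBS from -0.11 to 0.23 for Rdh5. The causes were not tested. Best1 with Rpe65 had r of 0.377 as deviations from group means, and -0.44 to 0.0125 with each animal left out. Animal 1 was singled out with animal 10 because it was thought to be rich in lens transcripts, which the counts did not show. Depth limits Best1, at 2 to 11 counts.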
